A study of Homo sapiens with 10 samples.

Results

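A set of 8 genes of the red cell surface was followed through bulk RNA sequencing of human blood cancer lines: RHAG, GYPB, GYPC, KEL, EPB41, ANK1, SLC4A1 and XK. They were taken by symbol from a deposited expression table, where each matched 1 of the 20591 genes listed, so 8 of 20591 genes are described. The table holds 10 libraries of untreated cells of wild-type genotype at day 0: the pure lines K562, HL60, THP1 and SUDHL4, 1 library each, and 6 mixtures of these 4 lines in ratios that the labels do not give. K562 came from a patient whose chronic myeloid leukaemia had reached blast crisis and has erythroid features. HL60 is promyelocytic and THP1 monocytic, both from acute leukaemias, while SUDHL4 is a B cell lymphoma line. The blends serve deconvolution, in which the cell types behind a bulk profile are estimated from it. Every group is 1 library of 1 line or blend, so no p-value is given, and intervals cover counting error only.

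The red cell membrane is a lipid bilayer held on a meshwork of spectrin. Ankyrin-1 (ANK1) ties spectrin to the anion exchanger band 3 (SLC4A1), and the protein encoded by EPB41 ties spectrin to actin and, through glycophorin C (GYPC), to the bilayer. RHAG is the glycoprotein that the Rh blood group proteins need to reach the surface. GYPB carries the S and s antigens, KEL is a surface peptidase that carries the Kell antigens, and XK is the protein linked to KEL that carries the Kx antigen. Most of these genes are switched on as erythroblasts mature, under transcription factors that include GATA1 and KLF1.

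The unit, normalised CPM, is the deposited value on a scale near reads per 1000000. Libraries were prepared with 1 of 2 kits, and the labels do not say which. Reads worked back from the deposited values of the 20591 listed genes came to between 24985570 and 36607612 per library. A gene with 1 read was listed at 0.0409 to 0.0594 normalised CPM. The limit set for a gene at 0 reads, 3 reads, was 0.0955 to 0.139. The pure libraries carried the markers of their labels, such as GATA1 at 236 and HBE1 at 2755 in K562, MPO at 15646 in HL60, MS4A1 at 2669 in SUDHL4 and CSF1R at 256 in THP1. Enrichment in a line required a minimum of 5 normalised CPM and a log2(value + 1) that exceeded each of the 3 remaining lines by 2 or more, a difference called the margin.

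Start site windows of members are shown for the contrast between genes read almost only in K562 (RHAG, GYPB and KEL) and GYPC, read in all 4 lines. Windows run from 250 bases before to 50 bases after a RefSeq transcript start (GRCh38.p14), and were examined for 5 of the members. The sequences are printed 5′ to 3′ in the direction of the gene, with capitals marking GATAA, a core that GATA factors bind, and CACCC, a core that KLF factors bind, on either strand (TTATC and GGGTG when they lie on the opposite strand).
RHAG, chr6:49636790-49637089, minus strand: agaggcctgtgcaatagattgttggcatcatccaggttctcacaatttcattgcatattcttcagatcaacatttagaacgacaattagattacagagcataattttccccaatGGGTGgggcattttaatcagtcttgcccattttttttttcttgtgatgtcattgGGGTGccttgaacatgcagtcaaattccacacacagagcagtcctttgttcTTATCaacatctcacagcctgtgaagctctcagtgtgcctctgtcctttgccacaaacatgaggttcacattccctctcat
GYPB, chr4:144019296-144019595, minus strand: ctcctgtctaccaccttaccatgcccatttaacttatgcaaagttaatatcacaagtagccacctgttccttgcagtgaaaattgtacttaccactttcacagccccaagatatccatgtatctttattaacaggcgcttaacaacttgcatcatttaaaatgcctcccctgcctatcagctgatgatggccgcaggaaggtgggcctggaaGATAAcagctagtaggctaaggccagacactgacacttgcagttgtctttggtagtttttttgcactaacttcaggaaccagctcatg
KEL, chr7:142962314-142962613, minus strand: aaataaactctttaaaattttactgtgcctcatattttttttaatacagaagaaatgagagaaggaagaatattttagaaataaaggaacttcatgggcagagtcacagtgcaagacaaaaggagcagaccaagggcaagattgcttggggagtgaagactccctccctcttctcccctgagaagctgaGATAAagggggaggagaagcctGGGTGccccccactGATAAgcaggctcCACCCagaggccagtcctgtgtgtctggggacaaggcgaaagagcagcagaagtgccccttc
GYPC, chr2:126655908-126656207, plus strand: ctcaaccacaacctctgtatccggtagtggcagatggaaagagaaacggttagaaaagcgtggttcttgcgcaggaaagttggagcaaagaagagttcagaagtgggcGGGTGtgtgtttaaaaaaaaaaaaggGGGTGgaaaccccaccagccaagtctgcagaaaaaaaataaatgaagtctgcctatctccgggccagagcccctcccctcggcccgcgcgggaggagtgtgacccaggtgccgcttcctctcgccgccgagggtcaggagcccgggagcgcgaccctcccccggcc

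The 5 members had 7 windows, since GYPB and EPB41 have 2 each. No window of ANK1, SLC4A1 or XK was examined, so the member shares below leave out these K562-enriched genes. GATAA lay in 4 of the 7, those of RHAG, GYPB (both windows, which overlap) and KEL, and in 22.7% of all 35116 windows of the RefSeq table. The 2 GYPB windows hold the same GATAA site, so by gene GATAA lay in windows of 3 of the 5 members. In RHAG it began 31 bases before the start, on the opposite strand. In the printed window of GYPB it began 38 bases before the start, and in KEL it occurred at 61 and at 25 bases before it. CACCC was found in 4 of the 7, in RHAG, KEL, GYPC and the GYPB window that starts farther upstream (not printed), a share near the 59.9% of all windows that hold it. Both motifs occurred together in 3 of the 7, those of RHAG, KEL and the farther upstream GYPB window, and in 10.96% of all windows. Neither motif occurred in the windows of EPB41, and no GATAA and CACCC matches overlapped in the printed windows. A match to these letters describes the sequence and is not a measured binding site.

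All 8 members were highest in K562 among the pure lines, where 30.3% of all genes, and 30.2% of those reaching 5 normalised CPM in a pure line, were highest. In all, 6 of them, RHAG, GYPB, KEL, ANK1, SLC4A1 and XK, were enriched in K562, whereas GYPC and EPB41 were read in every line. The background for that count of 6 of 8 was 2.62% of all genes, or 4.6% of the 11717 genes with at least 5 normalised CPM in a pure line. The members were chosen with earlier results of these data known, so the contrast with this background is a description and not an independent test. No member was enriched in HL60, SUDHL4 or THP1, where the backgrounds were 0.554%, 2.03% and 2.86% of all genes and 0.973%, 3.56% and 5.03% of the 11717. The median of the members' differences between K562 and the mean of the other 3 lines was 4.72 log2 units, beside 0.07 over those 11717 genes.

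RHAG, on chromosome 6 (49605158 to 49636884 in GRCh38), stood at 807 normalised CPM in K562, 0.0918 in SUDHL4, 0.0764 in THP1 and 0 in HL60. The SUDHL4 and THP1 values were 2 reads each, against 28580 reads in K562. It was thus at least 6879-fold higher in K562 than in HL60, counting 3 reads there as the limit. Its ratio to SUDHL4 was 10988.5, with a 95% counting interval of 3042 to 90740.4 that reflects the few reads in the lower library. Its margin over the next line, 9.53 log2 units, was the largest among the 8 members.

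GYPB, on chromosome 4 (143996104 to 144019345), was read in K562 alone among the pure lines, at 49.9 normalised CPM (95% counting interval 47.6 to 52.2), with 0 reads in HL60, SUDHL4 and THP1. That made it at least 388-fold higher in K562 than in any other line. KEL, on chromosome 7 (142941114 to 142962681), was at 44.9 in K562 (42.7 to 47.1) and at 0.0551, a single read, in SUDHL4, with 0 reads in HL60 and THP1. The ratio of K562 to SUDHL4 for KEL was 1222 (219 to 48292). GYPB and KEL therefore shared the pattern of RHAG, with at most a few reads outside K562.

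The XK protein partners KEL at the surface, but the XK gene was not confined to the line with KEL. XK, on the X chromosome (37685756 to 37732130), was at 54.5 in K562 (52.1 to 57.0), 7.99 in THP1 (7.05 to 9.02), 4.17 in HL60 (3.47 to 4.97) and 0 in SUDHL4. These 4 levels did not overlap in their counting intervals. XK was 6.83-fold higher in K562 than in THP1 (6.00 to 7.80), 13.1-fold higher than in HL60, and at least 424-fold higher than in SUDHL4. VPS13A, which encodes the lipid transfer protein that binds XK, was read in all 4 lines at 18.3 to 71.3 and was highest in SUDHL4, the line with no XK reads.

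The genes for ankyrin and its band 3 anchor, ANK1 and SLC4A1, were read mainly in K562. ANK1, on chromosome 8 (41653220 to 41896762), stood at 248 normalised CPM in K562, 6.44 in SUDHL4 (175 reads), 1.18 in THP1 (38 reads) and 0 in HL60. It was 38.6-fold higher in K562 than in SUDHL4 (33.2 to 45.0). SLC4A1, the band 3 gene on chromosome 17 (44248385 to 44268141), reached only 6.06 in K562 (5.27 to 6.92, from 214 reads) and had 0 reads in HL60, SUDHL4 and THP1. This put K562 at least 47.1-fold higher. SLC4A1 lay just above the minimum level of 5.

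EPB41 and GYPC were graded rather than restricted. EPB41, on chromosome 1 (28887091 to 29120046), was at 430.3 in K562, 215 in SUDHL4, 141 in HL60 and 31.9 in THP1. The K562 level was 2.00 times that of SUDHL4 (1.94 to 2.07) and 13.5 times that of THP1 (12.7 to 14.4), so THP1 stood low for this gene. GYPC, on chromosome 2 (126655933 to 126696670), was at 191 in K562, 105 in THP1, 90.1 in HL60 and 54.2 in SUDHL4, with neighbouring lines 1.17 to 1.81 times apart. The neighbours in both orders differed beyond counting error, and the spread between cultures was not measured. SUDHL4 was thus next to K562 for EPB41 and lowest for GYPC, which encode proteins of the same junction.

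**Figure D1:**
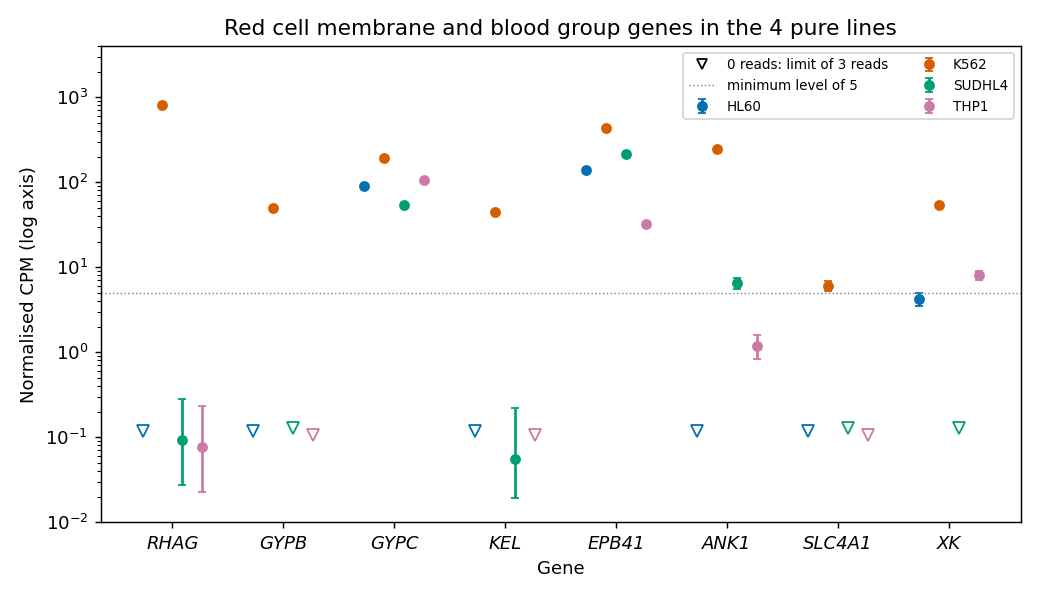
Normalised CPM (log axis) of the 8 genes in the pure HL60, K562, SUDHL4 and THP1 libraries, 1 library each; bars are 95% counting intervals, open triangles mark the limit of 3 reads for genes with 0 reads, and the dotted line is the minimum level of 5. K562 is the highest library for all 8 genes, from 6.06 (SLC4A1) to 807 (RHAG), and GYPC and EPB41 alone exceed 5 in all 4 lines.

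Levels of different genes were compared per kilobase of annotated exon sequence. On that scale RHAG led in K562 at 299.9 normalised CPM per kilobase, followed by GYPC at 49.98, GYPB at 26.6, ANK1 at 22.9, EPB41 at 21.5, KEL at 11.3, XK at 10.5 and SLC4A1 at 1.18. The order of the middle genes depended on the length used. With the longest annotated coding transcript, an alternative chosen after seeing the data, GYPC came to 106, GYPB to 95.7, EPB41 to 71.5 and ANK1 to 29.2, while RHAG (401) and SLC4A1 (1.22) kept the ends. The band 3 gene was therefore read at a far lower level per kilobase than ankyrin, its anchor, in the same K562 library. EPB42, whose protein binds band 3 and which was singled out after its values were seen, was at 0.711 per kilobase in K562 by exon length. EPB42 shares 16.5% of its 50-base words with an overlapping transcript, so its count is uncertain.

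GYPB has near copies, GYPE among them, and reads can be split between such genes. Of the 50-base words in its longest coding transcript, 24.8% also occurred in transcripts of other genes, 4.66% in GYPE, so its level is uncertain. RHAG, GYPC, KEL, ANK1 and XK shared no such word with another gene, and EPB41 and SLC4A1 shared 1.58% and 0.876%. GYPE was at 47.3 in K562, with 0 reads in HL60, SUDHL4 and THP1. For the other overlaps, 3.10% of the exon bases of EPB41 lay opposite TMEM200B, and 7.80% of those of ANK1 lay opposite a non-coding antisense gene, which was at 0 in K562. No source used here says whether reads were counted by strand.

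The mixtures ask whether these genes follow the amount of K562 RNA. Coefficients for the 4 lines were fitted to each mixture with 100 signature genes per line, none of them a member, and the level predicted for a gene was the sum of the 4 pure levels times these coefficients. The K562 coefficient, as a percentage of its pure level, was 21.8 in mixture 1, 19.4 in mixture 2, 35.6 in mixture 3, 0.00822 in mixture 4, 52.6 in mixture 5 and 51.8 in mixture 6. It measures RNA: fewer K562 cells and less RNA per cell cannot be told apart in bulk samples. Combinations with a value of 5 or more, observed or predicted, counted as off the prediction from a gap of 1 in log2(value + 1).

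None of the 48 member and mixture combinations was off its prediction, against 0.22% of all gene and mixture combinations. In 37 of the 48 either value reached 5, and the background among such combinations was 0.442%. By mixture, the background was 0.0534%, 0.612%, 0.0728%, 0.107%, 0.355% and 0.121% of all genes in mixtures 1 to 6, so few genes of any kind were off. With a gap of 0.5 the count was 2 of 48, near the 3.18% of all combinations off at that gap. With coefficients from all genes at 5 or more it was also 2, against 0.293% of all combinations. In mixtures 1 to 6, 48.7%, 51.6%, 55.2%, 59.7%, 47.2% and 49.4% of genes with a value of 5 or more lay above their prediction. Of the 48 member and mixture combinations, at any level, 16 lay above the prediction and 32 below it. On the scale of log2(value + 1), the largest departures were −0.55 for GYPB in mixture 3 and −0.51 for EPB41 in mixture 2. That scale shrinks the gaps of low values. As percentages of the prediction these departures were −33.5% and −29.7%. SLC4A1, read at low levels, departed further, by −37.7% in mixture 2 and −36.7% in mixture 5.

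RHAG was at 151 normalised CPM in mixture 1, 115 in mixture 2, 249.6 in mixture 3, 0 in mixture 4, 337 in mixture 5 and 314 in mixture 6. Mixture 4 was the only mixture without RHAG reads, and mixtures 5 and 6 were the highest. RHAG lay below its prediction in the 5 mixtures where it was read, by 0.20 to 0.45 log2 units. In mixture 4 the prediction, 0.141, was itself within the counting interval of 0 reads (up to 0.159). In mixture 5, for example, 425 was predicted, and in mixture 6, 418.

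KEL was at 10.5, 9.88, 14.7, 0, 24.6 and 22.1 in mixtures 1 to 6 and stayed within 0.16 log2 units of its predictions. GYPB was at 10.2, 10.6, 11.8, 0, 20.8 and 23.9. It fitted its prediction to within 0.11 log2 units in mixtures 1, 2 and 6. In mixture 3 GYPB stood at 11.8 with 17.8 predicted, and in mixture 5 at 20.8 with 26.2 predicted. SLC4A1 was at 1.35, 0.733, 2.51, 0, 2.02 and 3.02, from 18 to 98 reads where it was read, so its counting intervals were wide. Its predictions still lay above these intervals in mixture 2 (1.18 against 0.442 to 1.15) and mixture 5 (3.19 against 1.51 to 2.64). They lay inside them in the remaining mixtures. No SLC4A1 value, observed or predicted, reached 5 in a mixture, so this gene could not count as off the prediction. RHAG, GYPB, KEL and SLC4A1 thus had 0 reads in mixture 4, where the limit of 3 reads is 0.133 normalised CPM.

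ANK1 and XK kept a level in mixture 4, where the prediction drew on other lines. ANK1 was at 59.3, 35.3, 103, 3.10, 104 and 122 in mixtures 1 to 6. It lay below its prediction in 4 mixtures and above it in 2. Its departures included −0.46 log2 units in mixture 2 (48.8 predicted), −0.34 in mixture 5 (131 predicted) and 0.22 in mixture 3 (88.7 predicted). Of the 3.99 predicted for ANK1 in mixture 4, 3.61 came from SUDHL4. XK was at 12.9, 11.3, 24.3, 3.63, 25.5 and 26.0, and in mixture 4 the prediction of 2.83 was made up mostly of 2.41 from THP1. XK did not differ beyond counting error between mixtures 3, 5 and 6.

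GYPC and EPB41 were the members that varied least between mixtures. GYPC was at 113, 145, 119, 77.5, 178 and 147 in mixtures 1 to 6, and mixture 4 was the lowest. It lay above its prediction in 5 of 6 mixtures, by up to 0.44 log2 units in mixture 2, where 106 was predicted. EPB41 was at 171, 119, 196, 127, 199.7 and 204, below its prediction in 5 of 6 mixtures. In mixture 4, 120.4 of the 144 predicted for EPB41 came from SUDHL4, the largest part from any line. Mixtures 3, 5 and 6 overlapped in their counting intervals for EPB41.

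**Figure D2:**
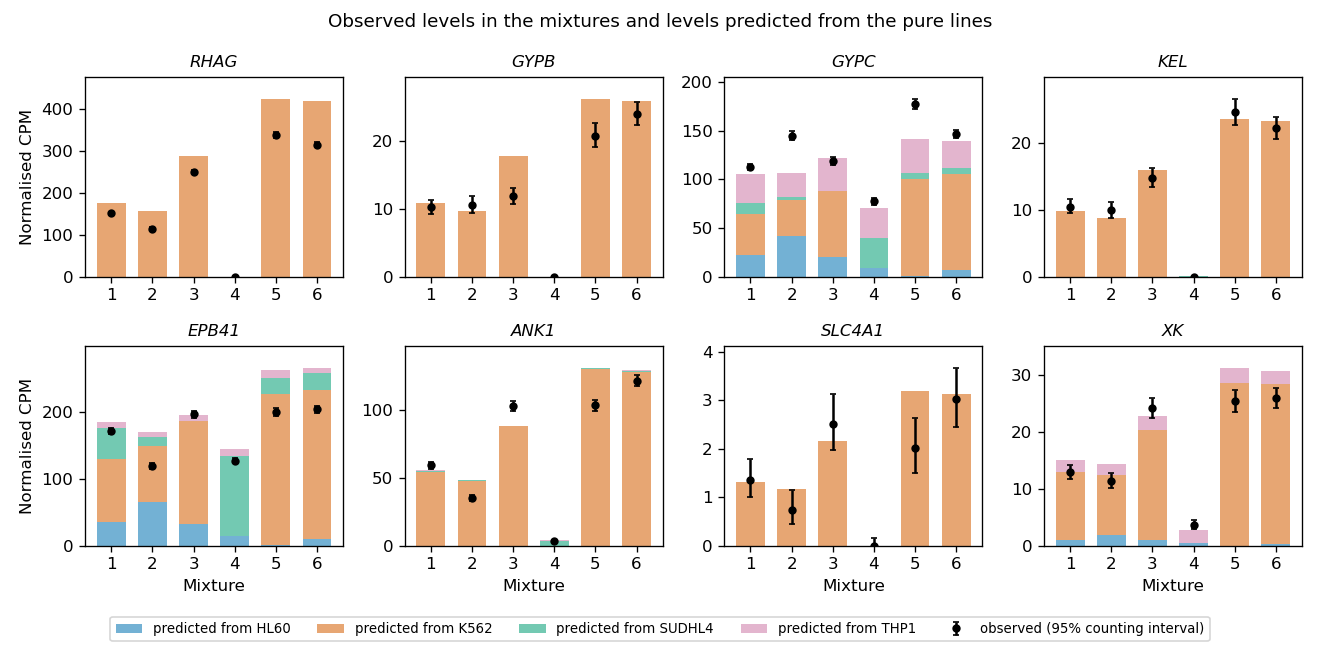
Observed normalised CPM (black points, 95% counting intervals, 1 library each) of the 8 genes in mixtures 1 to 6, over stacked bars of the level predicted from each pure line. RHAG lies under its bar in the 5 mixtures where it was read, and in mixture 4 EPB41 (127) and GYPC (77.5) remain while RHAG, GYPB, KEL and SLC4A1 have 0 reads.

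The 6 enriched members were also read as a percentage of their pure K562 level, beside the 533 other genes enriched in K562. Those genes had a median of 22.3% in mixture 1, 19.4% in mixture 2, 37.0% in mixture 3, 1.10% in mixture 4, 49.9% in mixture 5 and 51.1% in mixture 6. The medians of the 6 members were 22.8%, 17.5%, 37.1%, 0%, 41.8% and 48.6%. Leaving out mixture 4, 3 of 30 combinations lay below the 10th percentile of the other genes and 0 above the 90th percentile. These were GYPB in mixture 3 (23.7% against a 10th percentile of 29.8%), SLC4A1 in mixture 5 (33.3% against 34.9%) and RHAG in mixture 6 (38.9% against 39.3%). Only GYPB in mixture 3 lay below beyond counting error (21.1% to 26.6%), since the intervals of SLC4A1 (23.8% to 45.0%) and RHAG (38.0% to 39.8%) include the 10th percentiles. A share of 3 in 30 is that of the other genes by construction. Members lay below the median in 19 of the 30, RHAG in 5 of 5 mixtures, and 5 of 6 members in mixture 5 and 6 of 6 in mixture 6.

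**Figure D3:**
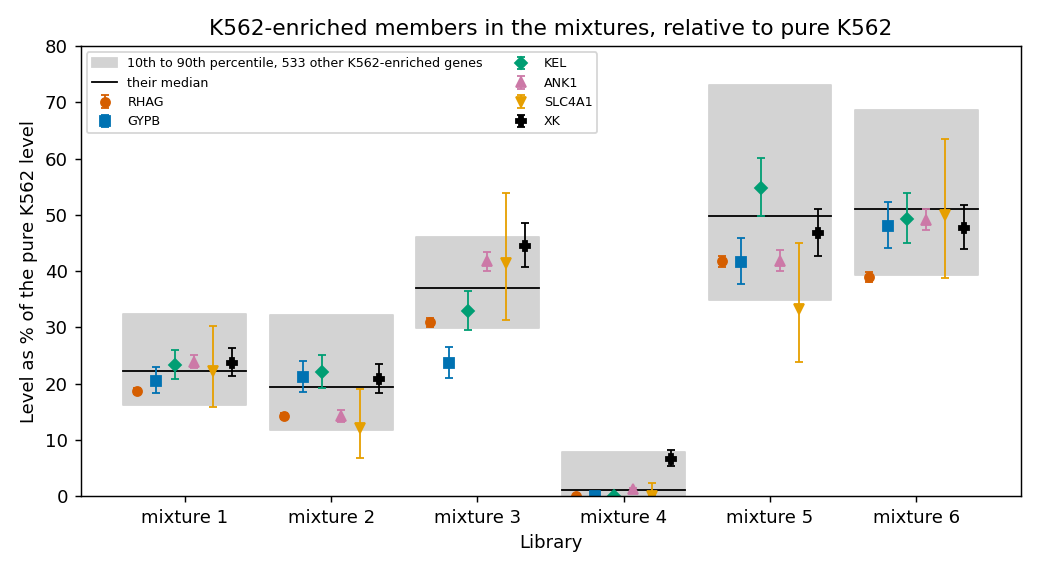
Level in each mixture as a percentage of the pure K562 level for the 6 genes enriched in K562 (points, 95% counting intervals), with the median and the 10th to 90th percentiles of 533 other K562-enriched genes (line and grey band). Most points lie inside the band; GYPB in mixture 3 lies below it at 23.7%.

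The genes with the closest profiles were found by Pearson's r of log2(value + 1) over the 10 libraries, among 11313 named genes with at least 5 normalised CPM in a library. The 6 mixtures are blends of the 4 pure lines, so r is high for nearly any gene read in K562 alone, and it is given as a description. For RHAG the closest were FAM83A and PKLR, the red cell pyruvate kinase gene (both r = 1.00). For GYPB they were CSAG1 and MAGEB1 (both 1.00), for KEL the non-coding LINC01029 and UCA1 (both 1.00), and for SLC4A1 they were MIPOL1 and TSPYL6 (both 1.00). ANK1 was closest to SYNGR3 and SLC18B1 (both 0.99), and XK to MAGEB2 (1.00) and TGFBR3 (0.99). GYPC was closest to NOTUM (0.99), and EPB41 to EXOC2 (0.99) and ATP6V0A2 (0.98). Among the members themselves r was highest between GYPB and KEL (1.00) and lowest between GYPC and EPB41 (0.28).

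The rest of the membrane was described from lists of related genes. The background for each count in K562 is 2.62% of all genes, or 4.6% of those with at least 5 normalised CPM in a pure line. Of 15 other skeleton and anchor genes, 5 were enriched in K562 and 0 in another line, and the list median was 1.51 log2 units against the mean of HL60, SUDHL4 and THP1, but −0.03 against the highest of them. They included SPTB (202 normalised CPM), a spectrin gene of red cells, DMTN (61.2) and TMOD1 (146), which encode actin-binding proteins, and MPP1 (409), a scaffold that binds the GYPC junction. SPTB overlaps PLEKHG3 on the opposite strand over 23.0% of its exon bases; PLEKHG3 was at 0.127 in K562. The non-erythroid spectrin gene SPTAN1, singled out after its values were seen, was highest in SUDHL4 at 655 and lowest in K562 at 49.4. ANK1 and SPTB were thus both enriched in K562, whereas EPB42, at 2.16 there, stayed under the minimum level.

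Of 31 measured genes for other blood group carriers and proteins of the Rh and band 3 complexes, 6 were enriched in K562, with a list median of 1.18 log2 units against the mean of the other lines and 0.31 against the highest of them. They included GYPE, the Rh genes RHD (42.3) and RHCE (39.3) and the adhesion gene ICAM4 (20.1). AQP3 (31.9), named after its value was seen, was another. RHD and RHCE are near copies, sharing 13.6% and 17.1% of their 50-base words with each other, and are uncertain. RHAG, which carries them to the surface, was at 299.9 normalised CPM per kilobase of exon sequence against 12.8 for RHD and 16.2 for RHCE. CA2, the carbonic anhydrase that works beside band 3, was instead enriched in THP1 (1483 against 0.438 in K562). BCAM (8.39 in THP1) and CD47 (219 in HL60), named after their values were seen, were enriched in those lines.

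Among 6 measured glycosyltransferases that build carbohydrate blood group antigens, 0 were enriched in K562, and GCNT2 was enriched in SUDHL4 at 26.5. With 2.62% of all genes enriched in K562, a count of 0 among 6 is not a result about these genes. Of 27 measured relatives of the members, 13 reached 5 normalised CPM in a pure line. In K562, 2 relatives were enriched, XKR3 (10.7) of the XK family and EPB41L5 (16.4) of the EPB41 family. EPB41L3 was enriched in HL60 (148) and MME, a peptidase of the KEL family, in SUDHL4 (367 against 2.89 in K562). The K562 median of these relatives was −0.35 log2 units against the mean of the other lines, where the members had 4.72. Both sets were chosen with earlier results of these data known, so this contrast too is a description. Of 9 erythroid regulators, 4 were enriched in K562, namely GATA1, TAL1 (81.8), KLF1 (50.8) and GFI1B (57.8), with a median of 3.89 log2 units against the mean of the other lines and 1.46 against the highest.

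**Figure D4:**
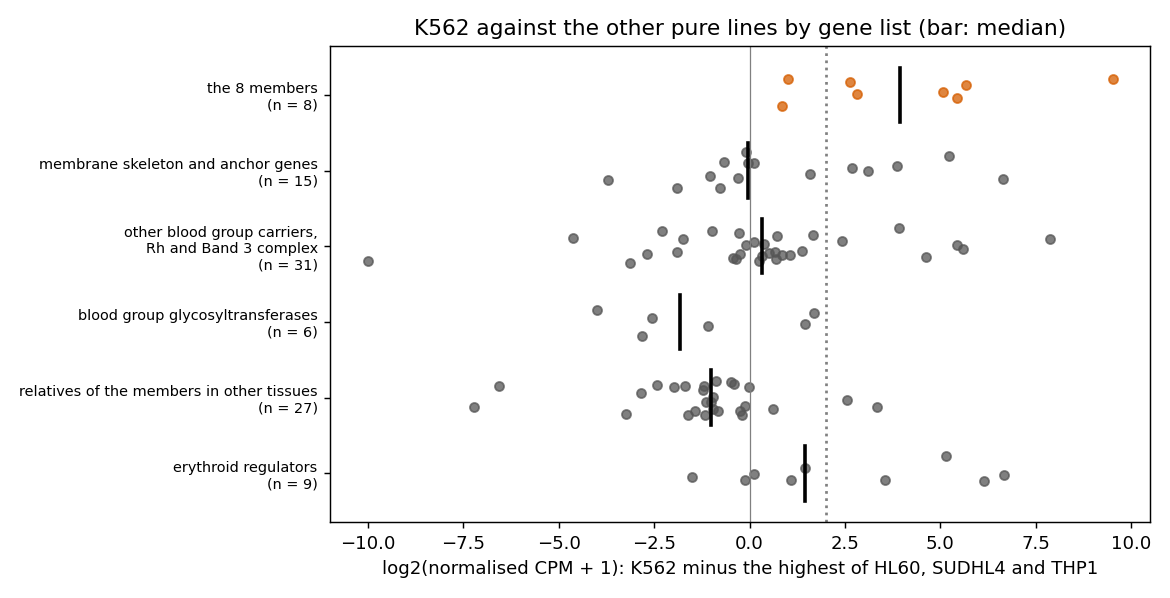
Difference in log2(normalised CPM + 1) between K562 and the highest of HL60, SUDHL4 and THP1 for the 8 members and 5 lists of related genes (points, 1 per gene, spread vertically at random; bars are medians; the dotted line is the margin of 2). All 8 members lie above 0, with a median of 3.94, while the medians of the lists run from −1.82 (glycosyltransferases) to 1.46 (erythroid regulators).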

How the data were processed

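Bulk RNA was sequenced from 4 pure lines and 6 mixtures, 1 library each, grouped by title. Per the submitters' processing notes, HISAT2 and featureCounts were used with genome build hg19; annotation and settings are not given in the sources used here. Signal values on the CPM scale were deposited by the authors for 20591 genes. Each value above 0 is whole reads plus 0.5, times a constant step per library (100% whole within 0.01), and the columns do not sum to 1000000, so libraries had been rescaled. Reads recovered this way gave exact 95% Poisson intervals of levels and conditional binomial intervals of ratios; they cover counting error only. The design had assumed plain CPM, and its rules were applied to the deposited signal.

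Coefficients came from non-negative least squares (scipy 1.17.1) on signature genes divided by their highest pure level. The calls and coefficients were also run on simulated data, but no outcome is given here and nothing above rests on it. Positions and lengths come from GENCODE release 29 (GRCh38), matched by Ensembl ID, while reads were counted on hg19. Named genes were all members, the 2 closest genes per member and up to 6 enriched genes per list with the largest margin, beside GYPE, RHD, RHCE, VPS13A and MME. Some genes that this rule names are not reported here. The members and lists were chosen with earlier results of these data known.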

Additional observations from a re-analysis of the deposited data

How the results depend on the processing

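The count of 6 members enriched in K562 and 0 elsewhere held with total-read or housekeeping scaling, pseudocounts of 0.5 and 0.1, a margin of 1 log2 unit and a minimum level of 1 or none. It was 4 at a margin of 3 log2 units, without SLC4A1 and XK, and 5 at a minimum level of 20, without SLC4A1; 1.60% and 1.52% of all genes were enriched there, and 5.25% at a margin of 1. Combinations off the prediction rose from 0 to 2 at 0.5 log2 units (GYPB in mixture 3 and EPB41 in mixture 2, with 3.18% of all combinations off), and to 2 with coefficients from all genes at 5 or more (RHAG and ANK1 in mixture 4, where the K562 coefficient became 2.69%, with 0.293% off). They stayed at 0 under the other 7 settings. The lower pseudocounts raised the margins of RHAG, GYPB, KEL and SLC4A1, to as much as 12.04 for RHAG. Housekeeping scaling moved the median of all genes in HL60 from 0.08 to −0.14 log2 units and in THP1 from −0.16 to 0.02. With that scaling the K562 margins of GYPC and EPB41 became 0.66 and 0.87. On the deposited values EPB41 fell just short of a margin of 1 log2 unit, at 0.9995. Its margin was 1.03 with total-read scaling and 1.001 and 1.002 with pseudocounts of 0.5 and 0.1.

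Depth limits SLC4A1 most, with 18 to 98 reads in the mixtures where it was read. No paired analysis was possible because each group holds 1 library, and no library could be left out in turn for the same reason.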
